A study of Mus musculus with 18 samples.

Results

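The 7 libraries described here were made from the retinal pigment epithelium (RPE) of young mice and were chosen as the columns labelled Young in the deposited count table, 7 of the 18 libraries of the series. The series measured bulk RNA by sequencing in mouse RPE. Beside Young (7 libraries) its groups were Old without a vector (4 libraries), Old control, which received the adeno-associated vector AAV2-tTA (3 libraries), and Old OSK, which received AAV2-tTA together with TRE-OSK (4 libraries). The tTA protein is a tetracycline-controlled transactivator, TRE the promoter it acts on, and OSK the transcription factors Oct4, Sox2 and Klf4. Young mice received no vector. Genotype, strain, sex and the ages in numbers are not given in the sources used here, and nothing in them says that the Young libraries came from separate animals, so every error below is the spread between these 7 libraries, which may be technical. The library names of Young 5, Young 6 and Young 7 carry a letter M that the labels do not explain.

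The RPE is a single layer of pigmented epithelial cells between the photoreceptors and the choroid. It regenerates 11-cis-retinal for the photoreceptors in the visual cycle, takes up and digests the outer segment tips that photoreceptors shed, moves glucose, lactate, ions and water between blood and retina, makes melanin and secretes proteins toward the retina and toward Bruch's membrane. RPE peeled or cut from an eye can carry along photoreceptor fragments, choroid and other ocular tissue, and bulk counts cannot tell more cells of a type from more RNA per cell.

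Total counts of the Young libraries ranged from 19629563 to 31914550, and 13823 to 15033 genes had at least 10 counts. The 3 libraries with M were the shallowest (19629563 to 20941456), and the other 4 started at 24728173. Across the 7 libraries, total counts and the number of genes detected rose together (Pearson's r = 0.895, exact permutation p = 0.00933, Benjamini-Hochberg adjusted p = 0.028, and Spearman's rho = 0.893, exact p = 0.0123, adjusted p = 0.0369, over 3 relations tested). Without Young 1 and Young 2, the libraries farthest from the median total, r was 0.841 over the 5 that remain (exact permutation p = 0.125). The libraries with and without M are too few for a value within each. Of 21859 rows in the table, 21687 are annotated as protein coding, so nearly all long noncoding RNAs are outside what is ranked here. 2793 rows had 0 counts in all Young libraries, 13503 reached a mean of 1 CPM (counts scaled to a common library total), 1962 reached 100 CPM and 90 reached 1000 CPM.

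The abundance ranking was steep. With genes ranked by their mean CPM over the 7 libraries, the first gene, Ptgds, took 2.18% ± 0.204 of a library's counts (mean ± SD, n = 7), the first 10 genes took 13.83% ± 1.13, the first 100 took 31.09% ± 1.85 and the first 500 took 48.59% ± 2.05. Between 451 and 658 genes were enough to reach 50% of a library's counts. These 100 genes took the smallest share in Young 3 (28.22%) and the largest in Young 5 (33.46%). Membership of the top varied little between libraries: 9 of the 10 genes with the highest mean were among the 10 most abundant of every library, 26 of 30 in the top 30 of every library and 76 of 100 in the top 100 of every library, while 130 genes entered the top 100 of at least 1. The order within the top did change, and in Young 2 mt-Co1 (26800 CPM) stood above Ptgds (20850 CPM), the first gene by mean.

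**Figure D1:**
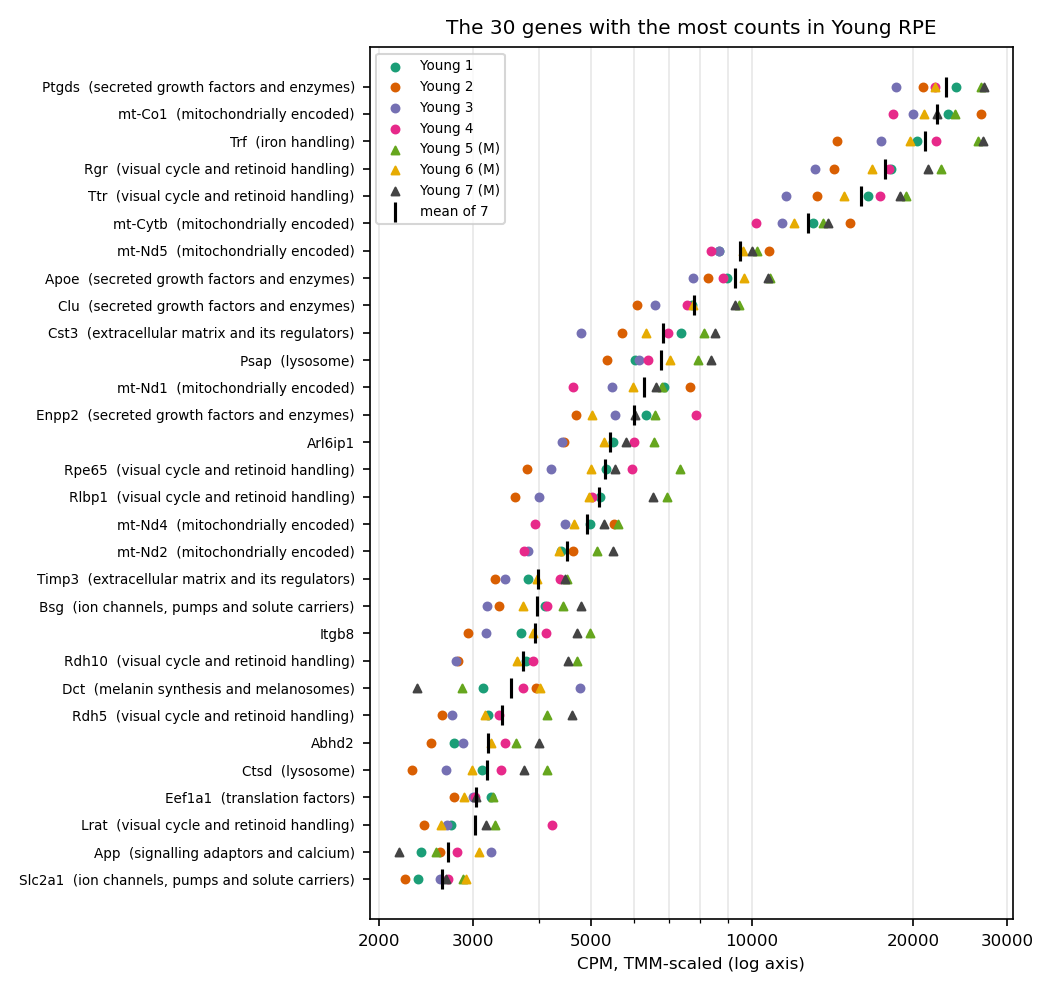
The 30 genes with the most counts in Young RPE, with CPM after TMM scaling on a log axis, 1 point per library (triangles are libraries with M) and a black mark at the mean of 7. Ptgds, mt-Co1, Trf, Rgr and Ttr have the highest means, and the points of Young 2 and Young 3 lie at the low end for most nuclear genes while Dct runs the other way.

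The 6 genes with the highest mean counts came from 4 classes. Ptgds, the lipocalin-type prostaglandin D synthase secreted into the interphotoreceptor matrix, ranged from 18560 CPM in Young 3 through a median of 21960 to 27180 in Young 7. The cytochrome oxidase subunit gene mt-Co1 ranged from 18390 in Young 4 to 26800 in Young 2. Trf, which encodes the iron carrier transferrin, ranged from 14420 in Young 2 through 20330 to 27020 in Young 7. Rgr, an opsin of RPE and Müller cells that binds retinal, and Ttr, the thyroxine and retinol-binding protein carrier transthyretin, had medians of 18060 and 16500 CPM. The gene mt-Cytb, for cytochrome b of complex III, ranged from 10180 to 15230 CPM. Trf shares 63.5% of its exon bases with Gm20425 on the same strand, so its counts are uncertain to the extent that reads were split between them. In GENCODE M21 (GRCm38), Ptgds spans chromosome 2 from 25466709 to 25470046, Trf chromosome 9 from 103204001 to 103230444, and Rgr chromosome 14 from 37034909 to 37048964.

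CPM counts long transcripts more often than short ones, so levels between genes were compared per kilobase of exon, rescaled to a common sum in each library (TPM). On that scale the order was mt-Co1 (43610 ± 5641 TPM), Ptgds (42150 ± 3235), Ttr (40560 ± 5481) and mt-Cytb (33720 ± 4314), and the first 3 did not differ beyond their spread. Trf moved down to 19070 ± 3129 TPM and Rgr to 11150 ± 1532 TPM. Cst3, the secreted cysteine protease inhibitor cystatin C, moved up to 16210 ± 2308 TPM, above Apoe, the lipid carrier apolipoprotein E (13110 ± 921). Of the 100 genes with the highest mean CPM, 67 were also among the 100 highest per kilobase. The genes that entered were short ones, among them Gsta4 (1171 ± 265 TPM), a glutathione transferase that clears lipid aldehydes, and Krt18 (1947 ± 288 TPM), a keratin of simple epithelia.

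Genes were assigned to 22 functional classes, each gene to 1 class. Of the 100 most abundant genes, 73 fell into a class, while genes in no class held 61.05% ± 1.26 of all counts. The largest shares of counts were those of the 13 mitochondrially encoded genes (5.94% ± 0.738), the 23 visual cycle and retinoid genes (5.60% ± 0.798) and the 47 secreted growth factors and enzymes (4.97% ± 0.246), and these 3 lay within or close to each other's spread. Extracellular matrix (2.77% ± 0.135), ion channels, pumps and solute carriers (2.76% ± 0.119), lysosome (2.34% ± 0.115) and iron handling (2.33% ± 0.349) followed. Cytosolic ribosomal proteins took 1.15% ± 0.134, nuclear-encoded oxidative phosphorylation 1.06% ± 0.055 and glycolysis 0.972% ± 0.0374. The transcription factors of RPE identity took 0.186% ± 0.0078 and immediate early genes 0.0279% ± 0.00911. Per kilobase the mitochondrially encoded class was the largest at 15.08% ± 1.7. The visual cycle class (7.73% ± 1.05) and the secreted class (7.15% ± 0.29) followed, within each other's spread.

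Of the visual cycle and retinoid genes, 20 of 23 reached a mean of 1 CPM and 9 were among the 100 most abundant. Rpe65, the isomerohydrolase that makes 11-cis-retinol, ranged from 3798 CPM in Young 2 through 5337 to 7341 in Young 5. Rlbp1, the retinal-binding protein that carries its product, ranged from 3604 in Young 2 through 5013 to 6937 in Young 5. Both were thus lowest in Young 2 and highest in Young 5, a 1.93-fold range for Rpe65 and a 1.92-fold range for Rlbp1.

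Lrat, which esterifies retinol to supply Rpe65, ranged from 2427 CPM in Young 2 through 2733 to 4221 in Young 4. The retinol dehydrogenases Rdh5 (3405 ± 718 CPM) and Rdh10 (3733 ± 746), which oxidise 11-cis-retinol, and Stra6, the receptor that takes up retinol (1776 ± 352), were also among the 100 most abundant. Rdh5 shares 25.6% of its exon bases with Bloc1s1 on the same strand, so its counts are uncertain to that extent. Per kilobase the order was Ttr, Rgr, Rpe65 (8263 ± 1453 TPM), Rlbp1 (5251 ± 917), Rdh5 (3643 ± 550), Rdh10 (2698 ± 396) and Lrat (1712 ± 354). Rrh, the RPE opsin peropsin, was far below its relative Rgr at 231 ± 24.3 TPM. Of the 20 genes, 13 were lowest in Young 2 or Young 3 and 13 highest in Young 5 or Young 7, and as shares of counts with no TMM factor the numbers were 12 and 11. Among the 100 most abundant genes they were 77 and 73, and 68 and 51 as shares of counts, so this order was not particular to the class.

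Since Rgr, Rpe65 and Rlbp1 had their lowest values in Young 2 or Young 3 and their highest in Young 5, the 250 bases before their RefSeq start sites (GRCm38.p6) are printed 5′ to 3′ on the gene's strand, with 2 motifs in capitals: TAATCC or its reverse complement GGATTA, a core bound by OTX-type homeodomain factors, and CATGTG or its reverse complement CACATG, the M-box core bound by MITF-type factors. Otx2 and Mitf are RPE transcription factors measured in these libraries. The windows lie at chr14:37049015-37049264 (-), chr3:159598931-159599180 (+) and chr7:79387028-79387277 (-).
Rgr: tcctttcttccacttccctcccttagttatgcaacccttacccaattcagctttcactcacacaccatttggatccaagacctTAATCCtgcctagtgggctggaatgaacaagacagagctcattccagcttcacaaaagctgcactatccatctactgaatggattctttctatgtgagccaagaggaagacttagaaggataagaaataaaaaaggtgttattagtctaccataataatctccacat
Rpe65: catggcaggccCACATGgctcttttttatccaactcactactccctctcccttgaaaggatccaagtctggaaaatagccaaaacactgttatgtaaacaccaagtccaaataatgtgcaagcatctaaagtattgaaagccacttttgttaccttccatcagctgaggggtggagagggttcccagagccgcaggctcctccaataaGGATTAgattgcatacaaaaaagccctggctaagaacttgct
Rlbp1: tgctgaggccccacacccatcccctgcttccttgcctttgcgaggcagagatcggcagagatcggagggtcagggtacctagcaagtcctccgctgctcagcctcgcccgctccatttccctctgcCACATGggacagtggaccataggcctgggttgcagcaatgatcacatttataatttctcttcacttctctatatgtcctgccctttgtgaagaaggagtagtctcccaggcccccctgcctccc
Both strands were searched and no printed match overlaps another. The first motif stood in 6.25% of 32851 RefSeq windows of this length and in 3 of the 25 windows of visual cycle genes (Rbp3, Rgr and Rpe65). The second stood in 12.3% of all windows and in 4 of the 25 (Rbp3, Rdh14, Rlbp1 and Rpe65). The palindrome CACGTG, searched as well, stood in 6.02% of all windows and in 1 of the 25 (Rdh11). Of the 23 genes, 17 were matched to the RefSeq table. A match is only a string of letters and shows no binding.

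Among secreted proteins, Ptgds was followed by Apoe, from 7741 CPM in Young 3 through 8980 to 10790 in Young 5, and by Clu, the extracellular chaperone clusterin, from 6098 in Young 2 through 7731 to 9470 in Young 5. Enpp2, the enzyme autotaxin that makes lysophosphatidic acid, ranged from 4683 in Young 2 to 7867 in Young 4. Each of these genes therefore had its lowest value in Young 2 or Young 3. The class did not share that order: of its 43 genes above 1 CPM, 18 were lowest in Young 7 and 14 in Young 2 or Young 3, and 19 were highest in Young 2. In the iron class, Trf was followed by the ferritin subunit genes Ftl1 (1140 ± 206 CPM) and Fth1 (1041 ± 109). Ftl1 shares 48.2% of its 50-base words with annotated copies elsewhere in the genome, so its counts are uncertain.

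The matrix class was led by Cst3 (6826 ± 1330 CPM) and by Timp3, a metalloproteinase inhibitor bound to Bruch's membrane (3978 ± 487), then by the collagen VIII chains Col8a2 (2425 ± 541) and Col8a1 (1905 ± 284). All 66 members listed reached 1 CPM. Lysosomal genes were led by Psap, the precursor of the saposins (6747 ± 1089), and Ctsd, the aspartic protease of outer segment digestion (3191 ± 620), then the lysosomal membrane protein gene Laptm4a (1503 ± 108) and the cysteine protease gene Ctsb (1407 ± 114). Ctsd shares 34.4% of its exon bases with Gm49369 on the same strand. Outer segment uptake genes were lower as a class (0.634% ± 0.0392 of counts): Lrp1, an endocytic receptor, had 1835 ± 218 CPM, the cytoskeletal linker of apical microvilli Ezr 1300 ± 272, the integrin subunit Itgav 930 ± 193 and Mertk, the receptor kinase of outer segment engulfment, 215 ± 39.3.

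Transport genes had 10 members in the top 100. Bsg, the basigin chaperone of lactate carriers (3958 ± 571 CPM), Slc2a1, the glucose carrier GLUT1 (2627 ± 249), Trpm3, a cation channel (2382 ± 203), and Slc4a5, a sodium bicarbonate carrier (2187 ± 211), had the most counts. Slc16a8, the basolateral lactate carrier MCT3, had 2136 ± 461 CPM. Per kilobase Slc16a8 (2818 ± 435 TPM) stood above Slc2a1 (2270 ± 212) and both stood far above Trpm3 (295 ± 24.2).

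The leading melanin genes had another order of libraries than the visual cycle genes. Dct, the dopachrome tautomerase, ranged from 2361 CPM in Young 7 through 3727 to 4771 in Young 3. Gpnmb, a melanosome glycoprotein, ranged from 753.7 in Young 7 through 1239 to 1752 in Young 3. Tyrp1, the related oxidase, ranged from 579.1 through 877.8 to 1063, and Trpm1, a melanocyte and bipolar cell channel, from 452 through 725.5 to 982.3, with the same libraries at both ends.

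Tyr, the rate-limiting enzyme of the pathway, had another order and varied little (550.5 to 659.8 CPM, lowest in Young 3). Of the 32 melanin genes above 1 CPM, 10 were lowest in Young 7 and 9 highest in Young 3, but 14 were lowest in Young 2 or Young 3 and 12 highest in Young 5 or Young 7, so the order of the leading genes was not that of the class. The melanin class took 0.992% ± 0.19 of counts, from 0.735% in Young 7 to 1.26% in Young 3. Sums of the cornea and conjunctiva marker list were also lowest in Young 7 (462.6 CPM) and highest in Young 3 (6531 CPM), and their part in the melanin values was not tested.

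Among transcription factors of the RPE, Otx2 ranged from 578.8 CPM in Young 3 through 742.9 to 930.8 in Young 7. Sox9 (197 ± 37.8 CPM) and Six3 (164 ± 26.7) were also highest in Young 7 and were lowest in Young 2. Mitf, the master regulator of pigment cells, held within 101.7 to 126.8 CPM. Pax6, a regulator of the early eye that ciliary, iris and corneal epithelium also express, ran the other way and spread far more, from 36.79 in Young 7 through 202.4 to 376.6 in Young 3. Of the 17 factors above 1 CPM, 6 were highest and 5 lowest in Young 7. As shares of counts with no TMM factor the numbers were 4 and 5, so the class had no common order.

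Energy genes were counted in 2 parts. Of the 13 mitochondrially encoded genes, 7 (mt-Co1, mt-Cytb, mt-Nd5, mt-Nd1, mt-Nd4, mt-Nd2 and mt-Nd6) had means from 2275 to 22230 CPM and from 10780 to 43610 TPM. The other 6 had means of at most 45.01 CPM and 186 TPM: mt-Co2 (186 ± 44.5 TPM), mt-Co3 (174 ± 46.4), mt-Atp6 (166 ± 41), mt-Nd3 (126 ± 33.8), mt-Atp8 (79.1 ± 21.6) and mt-Nd4l (66.6 ± 9.87), named here after their values were seen. These 6 genes are neighbours on the mitochondrial genome, from position 7013 to 10173, between mt-Co1 and mt-Nd4. They are parts of 1 long transcript in textbook mitochondrial biology, as are the genes on either side of them.

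Of the words of 50 bases in mt-Co2, mt-Co3, mt-Atp6, mt-Nd3 and mt-Nd4l, 98 to 100% also stand in transcripts annotated elsewhere, the closest being unprocessed pseudogenes on chromosome 1 between 24612407 and 24615565 (GRCm38). The shared part was 51.1% for mt-Co1, 62.2% for mt-Nd4, 7.61% for mt-Nd5, 8.19% for mt-Nd2 and 0% for mt-Cytb, mt-Nd1 and mt-Nd6. For mt-Atp8, which was also low, it was 0% in this annotation, and its end overlaps mt-Atp6. How reads with several matches were treated is not given in the sources used here, and the part of these copies in the low counts was not tested. The 7 abundant genes thus made up nearly all of the class's 5.94%. Young 2 was highest in 8 of the 13 genes and Young 4 lowest in 11.

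Nuclear oxidative phosphorylation genes were led by the ATP synthase subunits Atp5b (1272 ± 69.3 CPM) and Atp5a1 (947 ± 58.5), then Cox4i1 (486 ± 34.9), and 97 of the 101 rows reached 1 CPM. In glycolysis Aldoa (1900 ± 221 CPM), Eno1 (1662 ± 220), Pkm (1178 ± 37.8) and Gapdh (1151 ± 77.4) had the most counts. Ribosomal protein genes had none of 85 in the top 100 by CPM and 1 per kilobase, with Rpl3 (400 ± 25.2 CPM), Rplp0 (392 ± 62.1), Rps2 (375 ± 28.2) and Rpl4 (334 ± 27.1) highest. A median of 19.6% of their 50-base words stand in another gene's transcript and 29 of 84 share 25% or more, against a median of 0% over the 98 genes of the top 100 that could be searched, where 9 share 25% or more. Values of ribosomal proteins, of Eno1 (26% shared), of Eef1a1, the elongation factor (3036 ± 181 CPM, 38.6% shared), and of the heat shock protein genes Hsp90aa1 (2289 ± 435 CPM, 47.5%) and Hspa8 (1727 ± 297, 37%) are uncertain to that extent, while no visual cycle gene shares more than 3.06% of its words.

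The 27 top 100 genes in no class were led by Arl6ip1, an endoplasmic reticulum shaping protein, from 4407 CPM through 5492 to 6544, Itgb8, the integrin subunit that activates TGF-beta (3924 ± 744), and Abhd2, a lipid hydrolase (3207 ± 522). Glul, glutamine synthetase, was also among them and varied little (2251 to 2412 CPM). In the circadian class the clock output factor Tef (363 ± 25.1 CPM) and Dbp (289 ± 48.9) had the most counts, and the antioxidant class was led by Gpx4, which reduces lipid peroxides (1294 ± 286 CPM, 34.7% of words shared), then Gsto1, an omega-class transferase that varied widely (879 ± 750), and Cat, catalase (501 ± 96.6). Gpx3, a secreted peroxidase (830 ± 644), was counted with the secreted proteins.

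All 25 listed RPE markers reached a mean of 1 CPM. So did 13503 of all 21859 rows, 18 of 18 rod genes and 14 of 14 endothelial genes. This count therefore does not check the label. The summed level of the RPE markers was 51800 CPM in Young 3 and 77210 in Young 5, with a median of 63260. Within the list, levels ranged widely per kilobase: Rgr had 11150 TPM and Ttr 40560 TPM, while Serpinf1, which encodes the secreted factor PEDF, had 25.4 ± 5.54 TPM, and Best1, the basolateral bestrophin channel used as an RPE marker, had 1.41 ± 0.695 TPM (0.3998 to 1.879 CPM). Both were named after their values were seen. Kcnj13, the apical potassium channel (361 ± 73 CPM), shares 49.1% of its exon bases with Gigyf2 on the opposite strand, and as the strand setting is not given in the sources used here its level is uncertain. Of the 25 markers, 20 were lowest in Young 2 or Young 3, and 18 as shares of counts with no TMM factor. Among the 100 most abundant genes the numbers were 77 and 68, so this order was not particular to the markers.

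Markers of other cell types were present in every library at lower levels. Rod genes, 18 of 18 above 1 CPM, summed to between 1083 CPM in Young 5 and 4539 in Young 4 with a median of 2857, and 15 of the 18 were lowest in Young 5. Gnat1, the G protein subunit of rod phototransduction, ranged from 31.72 CPM in Young 5 through 393.5 to 685.9 in Young 4. Cone genes summed to only 77.18 to 131.3 CPM, with Cnga3 under 1 CPM in all libraries. No relation between summed rod and summed RPE levels was detectable over the 7 libraries (r = 0.216, exact permutation p = 0.618, adjusted 0.618, rho = 0.107, exact p = 0.84, and r = 0.663 without Young 2 and Young 5).

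Lens crystallins summed to 3027 CPM in Young 1 against a median of 186.2 and a lowest value of 27.25, with Cryaa, the alpha crystallin chaperone, from 2.547 through 59.85 to 1556 CPM. Corneal and conjunctival markers summed to 6531 CPM in Young 3 against a median of 1495 and 462.6 in Young 7, and all 10 genes of the list were highest in Young 3. Endothelial genes summed to 416.9 CPM in Young 4 and 122 to 151.6 in the other 6, and all 14 were highest in Young 4, among them Plvap of fenestrated capillaries (66 CPM against 17.28 to 28.21) and Vwf of endothelial granules (70.87 against 13.17 to 22.44).

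Skeletal muscle genes summed to 42.03 CPM in Young 3 and 718.3 in Young 1 with a median of 475.9, and Tnnc2 was under 1 CPM throughout. Stromal fibroblast genes ranged from 338.3 CPM in Young 7 to 1164 in Young 2, and Schwann and myelin genes from 533.4 in Young 3 to 1231 in Young 2. In the first list Fbln1 alone went from 26.44 CPM in Young 7 to 634.7 in Young 2. In the second Mbp alone went from 63.67 CPM in Young 3 to 667.9 in Young 2. Each range was thus largely that of 1 gene. Immune genes summed to 546.2 to 713.1 CPM, most of it Csf1r, the macrophage growth factor receptor (401.1 to 619.9 CPM). Csf1r shares 15.1% of its exon bases with Hmgxb3 on the opposite strand. As the strand setting is not given in the sources used here, the level of Csf1r and this sum are uncertain. The lists of Müller glia (22560 to 30440 CPM) and of ciliary and iris epithelium (19650 to 28250) hold Apoe, Clu, Rlbp1, Glul and Ptgds, which are among the most abundant genes of the RPE ranking itself, and so are no measure of those cells. The melanocyte list (4172 to 7564 CPM) shares Dct, Gpnmb and Tyr with the RPE. Its member Mc1r was under 1 CPM in all libraries, while Sox10, a neural crest factor, ranged from 162 through 193.2 to 286.6 CPM.

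**Figure D2:**
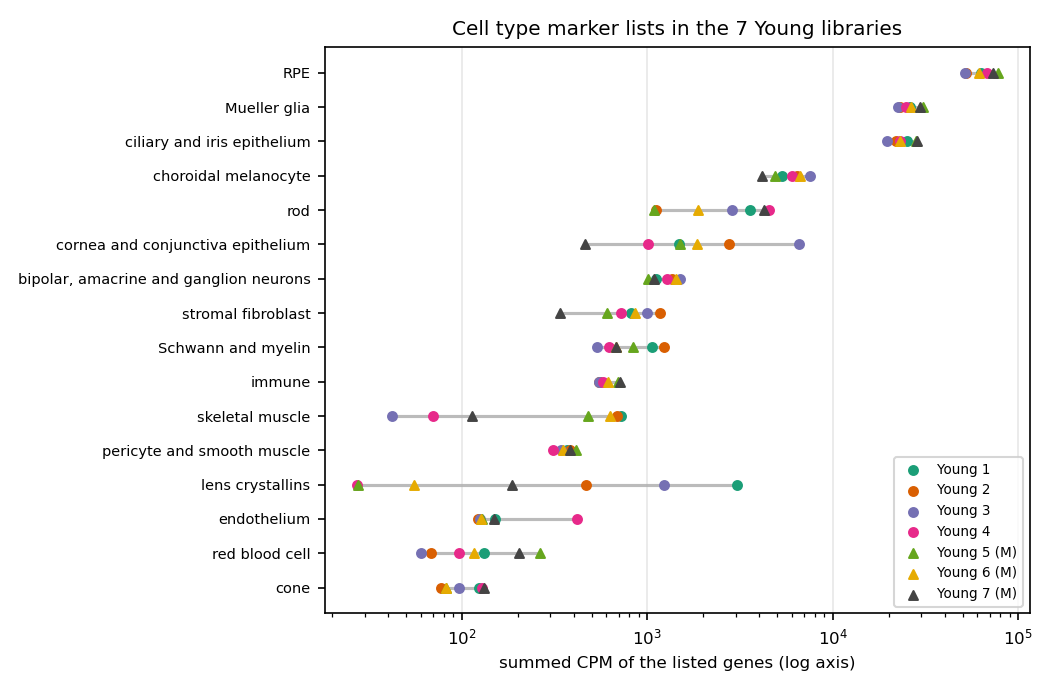
Summed CPM of each cell type marker list (log axis), 1 point per Young library and a grey line from lowest to highest, with triangles for libraries with M. The RPE list spans 51800 to 77210 CPM, while lens crystallins span 27.25 to 3027 and cornea and conjunctiva genes 462.6 to 6531.

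The spread between libraries exceeded counting error at every level of abundance. The median coefficient of variation over the 7 libraries was 15.8% for the 100 most abundant genes, 10.7% for genes of 100 to 1000 CPM, 11.7% for 10 to 100 CPM and 29.3% for 1 to 10 CPM, where counting error alone would give a median of 0.546%, 1.6%, 3.61% and 10.5%. The common biological coefficient of variation from edgeR was 0.2502 over 13264 genes, and between 0.2312 and 0.2693 when 1 library was left out. The same estimate was 0.2997 in Old, 0.4002 in Old control and 0.2829 in Old OSK, and a difference between groups was not tested.

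Of 3185 genes whose log2 CPM averaged at least 6, 582 had an SD of log2 CPM under 0.1, 2310 under 0.2 and 35 over 1, with a median of 0.15. The 10 steadiest included Hp1bp3, a heterochromatin protein (188.4 to 202 CPM), the splicing regulator gene Hnrnpa1 (233.8 to 250.1), Hsd17b12, an enzyme of fatty acid elongation (258.4 to 273.2), Glul and Prkar1a, a regulatory subunit of protein kinase A (268.4 to 288.3). The 10 most variable included Penk, Gpx3, Muc4, Reln, Prph2, Gnat1, Fbln1, Krt5 and Krt15.

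Penk, the proenkephalin precursor, ranged from 9.9 CPM in Young 7 through 242 to 629.7 in Young 2. Gpx3, the secreted glutathione peroxidase, ranged from 50.57 in Young 7 through 992.9 to 1903 in Young 2, and Reln, the extracellular protein reelin, from 17.72 in Young 7 through 281.7 to 483 in Young 2. Krt5, a keratin of stratified epithelia, ranged from 52.31 in Young 7 through 348.8 to 1913 in Young 3, and Krt15 from 65.08 through 481.1 to 2073 with the same libraries at the ends.

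Gsto1 followed the keratins, from 95.29 CPM in Young 7 through 727.8 to 2335 in Young 3. Of the 35 genes, 29 were lowest in Young 7 and 5 (the rod genes among them) in Young 5, while 17 were highest in Young 3, 12 in Young 2 and 6 in Young 4. None of the 35 is on the RPE list, and 11 are on another list: 5 of cornea and conjunctiva, 4 of rods, 1 of stroma and 1 of myelin. Egr1, an immediate early gene below that level, had 262.2 CPM in Young 7 and 6.714 to 21.56 in the other 6.

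**Figure D3:**
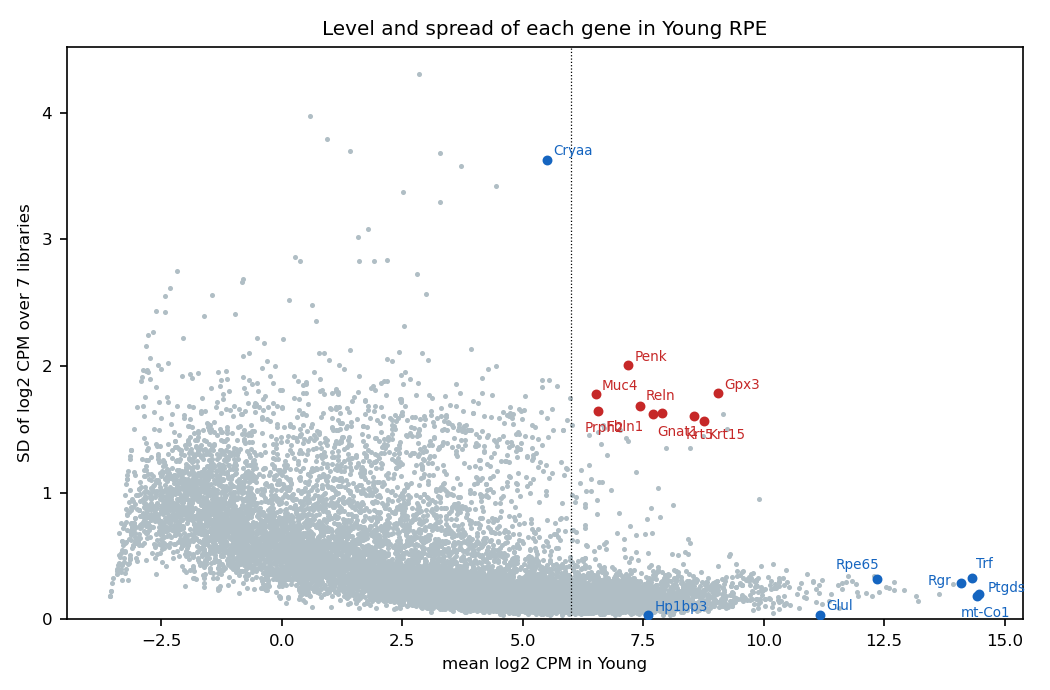
Mean log2 CPM of each gene in Young (x axis) against its SD of log2 CPM over 7 libraries (y axis), with the dotted line at a mean of 6. Red genes are 9 of the 10 with the largest SD above that line, from Penk (2.00) down, and blue genes are abundant RPE genes, the steady Glul and Hp1bp3, and the crystallin gene Cryaa.

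In a principal component analysis of log2 CPM over 13264 genes, the first component held 52.96% of the variance between the Young libraries, the second 16.56% and the third 10.19%. Young 7 scored 59.28 on the first component, Young 5 22.78 and Young 4 12.63, while Young 6 scored -8.85, Young 1 -12.78, Young 2 -34.07 and Young 3 -38.99. Without Young 7 the first component held 45.48%. Over the 21 pairs of libraries, log2 CPM correlated with r from 0.927 to 0.986 across genes, which are not independent replicates. Young 7 had the lowest mean correlation with the others (0.952) and Young 6 the highest (0.977). Rod genes loaded positively on the first component in 18 of 18 cases, RPE genes in 19 of 24, corneal and conjunctival genes in 0 of 9 and crystallins in 0 of 8. Endothelial genes did so in 13 of 14, red blood cell genes in 5 of 5, immune genes in 3 of 15 and skeletal muscle genes in 2 of 11. Genes of a list can vary together in the same libraries, and the share over all 13264 genes is not given here, so these counts are a description. The summed rod level and the first component had r = 0.414 over the 7 libraries (exact permutation p = 0.352, adjusted p = 0.529, rho = 0.214, exact p = 0.662, and r = 0.612 without Young 2 and Young 5).

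The 3 libraries with M were compared with the 4 without in edgeR's quasi-likelihood test. Of 14734 genes, 4 (0.0271%) had an adjusted p under 0.05, all higher with M and all on the Y chromosome. Kdm5d, a histone demethylase, had 24.58 to 29.28 CPM with M and 0 to 0.1981 without (adjusted p = 0.00229). Uty, a demethylase of another family, had 29 to 30.09 CPM with M and 0 to 0.3961 without (adjusted p = 0.0117). Eif2s3y, a translation initiation factor subunit, had 35.55 to 37.8 and 0 to 0.9111 (adjusted p = 0.0366), and Ddx3y, an RNA helicase, 120.2 to 163.2 and 0 to 2.12 (adjusted p = 0.0376). The groups do not overlap for any of the 4, which were chosen by the test on these values, and how many other genes separate is not given here. Fold changes against values this near 0 depend on the prior count and are not given.

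The X-linked relatives Ddx3x (410.7 to 427.5 CPM with M, 572.5 to 647.6 without, log2 fold change -0.57, adjusted p = 0.193) and Kdm6a (log2 fold change -0.84, adjusted p = 0.254), named after their values were seen, did not pass. Of all tested genes, 1919 had an unadjusted p under 0.05, and DESeq2 called 160 genes higher and 72 lower. When a library was left out, 1 to 4 genes were called: 1 without Young 1, Young 5, Young 6 or Young 7, 2 without Young 3, and 4 without Young 2 or Young 4. The 4 Y-linked genes summed to 215.6 to 258.5 CPM in the libraries with M and to 0 to 3.605 CPM in the deeper libraries without. As the libraries with M were also the shallowest, the design does not tell depth and the letter M apart.

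Whether the baseline order holds in Old RPE was asked of the same 100 genes, with all 18 libraries fitted together in edgeR. None of the 4 Old libraries carries the letter M, against 3 of the 7 Young libraries, so age and M are partly confounded. The 4 Y-linked genes summed to 0.8667 to 4.454 CPM in Old, against 215.6 to 258.5 in the Young libraries with M. Age and Y-linked counts are therefore partly confounded as well. Of the 100 most abundant Young genes, 87 were also among the 100 most abundant in Old. Of 15944 genes tested 1524 (9.56%) were called in either direction, 861 of them higher in Old (5.4%) and 663 lower (4.16%), and of the 100 genes 2 were called, both lower. The 100 genes had a median log2 fold change of -0.30 in Old against Young, with 89 below 0, against a median of -0.0044 over all tested genes. The 100 genes were chosen for their level in Young, which by itself favours lower values in Old, so these figures are a description. With the 100 genes ranked over Young and Old together the median was -0.28, and it was -0.19 without Old 4 and -0.19 in libraries without M. The RPE marker list summed to 33450 to 56080 CPM in Old and to 51800 to 77210 in Young. Rod genes summed to 3310 to 9985 CPM in Old against 1083 to 4539, and cornea and conjunctiva genes to 1192 to 22200 against 462.6 to 6531. Lens crystallins summed to 30.32 to 93.6 CPM in Old against 27.25 to 3027. The part of tissue make-up in these fold changes, and in those of Scd2 and Rtn3 below, was not tested.

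Scd2, a fatty acid desaturase, had 874 CPM to 1285 CPM in Young with a median of 968, and 737.1, 647.4, 698.6 and 697.3 CPM in Old 1 to Old 4 (log2 fold change -0.56, SE 0.142, adjusted p = 0.026). Rtn3, a reticulon of the endoplasmic reticulum, had 1187 to 1677 CPM in Young with a median of 1365, against 924.9, 1049, 1017 and 675.1 CPM in Old 1 to Old 4 (log2 fold change -0.60, SE 0.167, adjusted p = 0.0357). Every Old library lay below every Young library for both. The 2 genes were chosen by the test on these values, and how many other genes separate in this way is not given here. In the fit that also held M, Scd2 had a log2 fold change of -0.48 (adjusted p = 0.0795) and Rtn3 one of -0.59 (adjusted p = 0.0821), and 0 of the 100 genes were called. The calls held in 6 and 3 of 11 fits that left out a library: Scd2 was lost without Old 2, Old 3, Old 4, Young 5 or Young 6, and Rtn3 without Old 2, Old 3, Old 4, Young 1, Young 4, Young 5, Young 6 or Young 7.

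**Figure D4:**
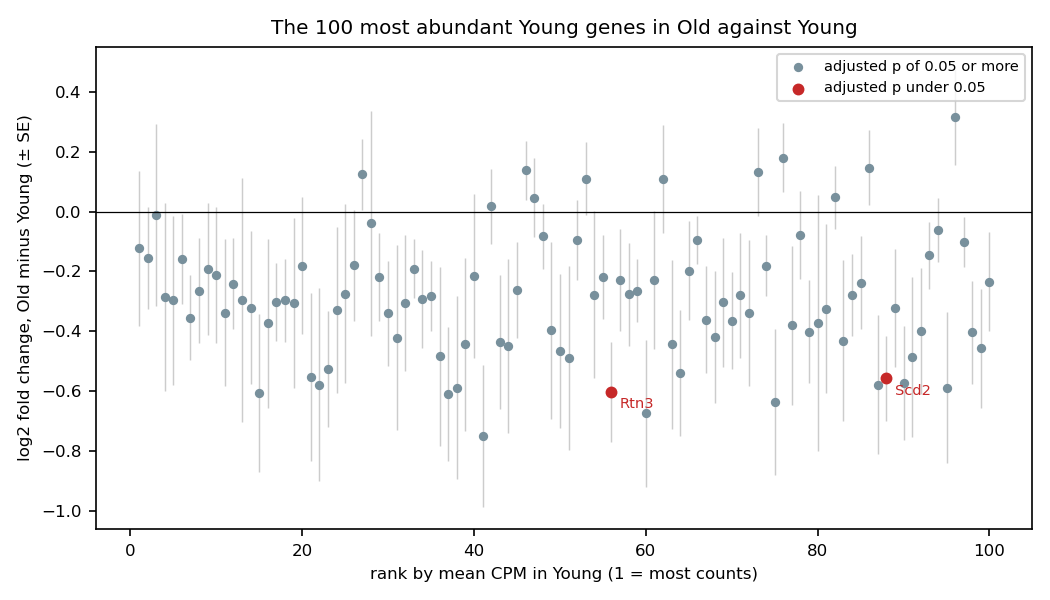
Log2 fold change, Old minus Young (y axis, whiskers ± SE), of the 100 genes with the highest mean CPM in Young, by rank (x axis). Red points are Scd2 and Rtn3, with an adjusted p under 0.05, and 89 of the 100 points lie below 0.

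The genes carried by the vector in the Old OSK group were low in untreated Young RPE. Sox2, a neural and progenitor factor, had 4 ± 1.14 CPM, from 2.489 to 5.572. Klf4, a factor of differentiated surface epithelia, had 18.7 ± 15.3 CPM, with 50.95 in Young 3 and at most 21.91 elsewhere. Pou5f1, which encodes Oct4, had 3.75 CPM in Young 3, at most 0.2268 in 4 libraries and 0 counts in Young 5 and Young 7, which allows up to 3 counts. Gsta4 had 486 ± 92.4 CPM, from 403.3 in Young 4 through 449 to 679.1 in Young 3. Young 3 was thus the highest of the 7 libraries for Klf4, Pou5f1 and Gsta4, and it also had the highest cornea and conjunctiva sum (6531 CPM), whose part in these values was not tested.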

How the data were processed

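RNA was sequenced from mouse RPE. Per the labels' protocols, polyA RNA was amplified as full-length cDNA and made into transposase-cut libraries. The authors deposited a table of raw read counts per gene and library, and the submitters' processing notes name STAR 2.7.1a and featureCounts 1.6.2. They list human and mouse builds without saying their role, and the strand setting and annotation are not given in the sources used here. Counting error is a lower limit, because PCR copies cannot be told from molecules.

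The members, gene lists and tests were chosen with earlier results of these data known. Counts were scaled by TMM over 18 libraries (edgeR 4.0.16, R 4.3.3, filterByExpr with a minimum count of 10 and a minimum total of 15) into CPM. Library totals in CPM shares use all rows. Exon lengths came from GENCODE M21 (21723 rows matched, 318 through a synonym). The Old against Young test fitted 4 group means to all 18 libraries, and the test of the letter M used the 7 Young libraries alone, both with glmQLFit and glmQLFTest and Benjamini-Hochberg adjustment. Log2 CPM used a prior count of 2. DESeq2 1.42.0 was an alternative. On simulated counts with 200 changed genes, the test of M recovered 57% of 2-fold and 85% of 4-fold changes with 4 false calls over 14734 genes, and Old against Young 57% and 82% with 5 over 15944. Near-identical copies were sought as words of 50 bases shared with GENCODE transcripts of genes at another place.

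Genes named are the 30 with the highest mean CPM, the 20 highest per kilobase, the 4 highest of each class and marker list, the 10 largest and 10 smallest SDs of log2 CPM among genes whose log2 CPM averaged at least 6, up to 6 called genes per direction for M whose log2 CPM averaged at least 3, up to 5 called per direction in Old against Young among the top 100, and Pou5f1, Sox2, Klf4 and Gsta4, beside others of the fixed lists named for their role or after their values were seen. Not every gene that the rule admits is described, and some are not reported here. No 2 Young libraries agreed within sampling noise (chi-square per gene 21.2 to 108.5 over 21 pairs), so none was merged. Symbols shared by several rows (24 symbols, 50 rows) were kept as separate rows.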

Additional observations from a re-analysis of the deposited data

Results flagged for a closer look

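Of 151 sets of values tested, 14 had 1 library standing apart from the rest of its group by Dixon's criterion (a gap to the nearest value over the group's range above 0.568 for 7 libraries), and chance flags about 1 in 20. Young 3 was the highest library, apart from the rest, in 6 of them: the cornea and conjunctiva sum (6531 CPM), Krt15 (2073 CPM), Krt5 (1913 CPM), Gsta4 (679.1 CPM), Klf4 (50.95 CPM) and Pou5f1 (3.75 CPM). Young 4 stood apart as the highest library for the endothelial sum (416.9 CPM), Vwf (70.87 CPM), Plvap (66 CPM) and the circadian clock class (0.205% of counts). Young 1 stood apart as the highest for the lens crystallin sum (3027 CPM) and Cryaa (1556 CPM). Young 7 was far above the rest for Egr1 (262.2 CPM) and below the rest for Laptm4a (1277 CPM, against 1503 ± 108 over all 7). These values are parts of the same libraries and are not independent of each other.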

How the results depend on the processing

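The CPM of each of the 30 most abundant genes moved by less than 1 SD in all 330 alternative fits of their level, and leaving out a library moved no class share by more (161 values). Without mitochondrially encoded genes the 100 most abundant genes held 27.39% of counts, per kilobase 45.29%, and by the longest coding transcript (chosen after seeing the data) 41.78%. The visual cycle share was 7.73% per kilobase. With no low-count filter the biological coefficient of variation was 0.306 and the first component 39.63%. Without the 2 farthest libraries the correlation of total counts with genes detected was 0.841. For the letter M, DESeq2 called 160 genes higher and 72 lower, robust empirical Bayes 1 higher, no gene was called without Y-linked genes and Xist (1914 at an unadjusted p under 0.05), and leaving out a library gave 1 to 4 higher. In Old against Young the genes called higher, lower and among the 100 were 1495, 957 and 8 with DESeq2, 315, 285 and 0 with M as a covariate, and 202, 243 and 2 in libraries without M. They were 674, 425 and 2 at a mean of at least 50 counts, 755, 396 and 1 with no filter, 1032, 669 and 4 with the 2 groups alone, and 1 of the 100 with the ranking over Young and Old. Leaving out a library gave 233 to 1422 higher, 160 to 734 lower and 0 to 4 of the 100. The deviations of equally numbered Young and Old libraries from their group means had r = -0.05, -0.02, 0.14 and -0.19 for numbers 1 to 4. Unequally numbered libraries were not compared, so these values cannot decide whether the numbers pair the libraries. With the replicate number as a block 0 genes were called higher, 0 lower and 0 of the 100 (2269 at an unadjusted p under 0.05), against 105, 86 and 0 in the same libraries with no block. No direction of a named gene reversed in 94 fits of the contrasts, and 39 of them missed the threshold. The cause of these differences was not tested.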
